A study of Mus musculus with 9 samples.

Results

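The HOX genes were described here in 5 tumours and 4 normal skeletal muscles of mice, by cluster (A, B, C and D) and by paralogue number, the position of a gene along its cluster. Of the 38 HOX genes listed, 26 had at least 1 probe set with a single gene symbol in the deposited table, out of 14440 genes held in all, and the other 12 were not analysed here. The 26 comprised 6 genes of cluster A, 6 of cluster B, 6 of cluster C and 8 of cluster D, measured by 36 probe sets. Total RNA was hybridised on Affymetrix expression arrays, 1 array per sample, and levels are MAS5 signals rescaled to a common trimmed mean, called scaled intensity. The tumours arose in mice whose labels read MYF-5 CRE/SSM2 and SYT-SSX. In these mice the Myf5 gene, which is active in muscle precursor cells, drives Cre recombinase, and SYT-SSX is the fusion oncoprotein that defines synovial sarcoma. Of the tumours, 3 carry CC names (CC17-A, CC17-B and CC23) and 2 carry SSM names (SSM4 and SSM5), which the labels do not explain. The muscles were titled wild type and came from hind limb, hind limb again (hind limb 2 below), forelimb and intercostal muscle. Genotype and tissue therefore differed together, and ages and tumour sites were not given in the sources used here. CC17-A and CC17-B share a label stem, and no label states that samples are from different animals. The p-values therefore measure only the spread between samples, which may be technical. In bulk tissue, fewer cells of a type and less RNA per cell cannot be told apart.

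HOX genes encode homeodomain transcription factors and lie in clusters in which the order of the genes matches the order in which they are used along the body axis. Low-numbered (3-prime) genes act in the hindbrain and neck, central genes in the trunk, and high-numbered (5-prime) genes in the lumbar to tail region and in the outer parts of the limbs. Adult muscle and connective tissue cells retain part of the HOX pattern of the site where they formed. HOX proteins bind DNA together with cofactors of the TALE class, the PBX, MEIS and PKNOX proteins.

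By the brightest probe set of each gene, Hoxd8 and Hoxd9 had the largest decrease and are consecutive HOX genes in RefSeq's gene order. Hoxd10, the HOX gene that separated hind limb muscle from the other sites, is next to Hoxd9. The 250 bases before the annotated start of each are shown for these 3 neighbouring genes. The decrease is that of Hoxd8 and Hoxd9, and the hind limb pattern that of Hoxd10, which was not tested for a decrease. They are from RefSeq on GRCm38.p6, plus strand, at chr2:74704365-74704614 for Hoxd8, chr2:74697513-74697762 for Hoxd9 and chr2:74691641-74691890 for Hoxd10. Capitals mark matches to CCAAT on either strand.
Hoxd8: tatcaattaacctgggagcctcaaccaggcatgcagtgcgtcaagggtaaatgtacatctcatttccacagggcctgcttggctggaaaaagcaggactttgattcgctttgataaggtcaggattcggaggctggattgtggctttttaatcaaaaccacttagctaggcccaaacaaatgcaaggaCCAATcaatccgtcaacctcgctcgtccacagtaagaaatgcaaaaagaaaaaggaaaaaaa
Hoxd9: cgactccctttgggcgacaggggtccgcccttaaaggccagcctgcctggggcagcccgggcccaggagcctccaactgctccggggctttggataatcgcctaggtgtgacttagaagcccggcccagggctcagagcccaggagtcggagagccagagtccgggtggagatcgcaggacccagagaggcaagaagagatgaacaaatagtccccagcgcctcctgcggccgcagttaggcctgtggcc
Hoxd10: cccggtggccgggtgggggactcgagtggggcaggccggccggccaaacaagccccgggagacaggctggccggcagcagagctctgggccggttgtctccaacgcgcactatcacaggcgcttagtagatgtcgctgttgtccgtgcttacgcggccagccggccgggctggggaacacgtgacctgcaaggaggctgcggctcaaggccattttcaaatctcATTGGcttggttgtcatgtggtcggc

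The Hoxd8 window held 44.4% G and C and 6 CpG pairs, against medians of 52.4% and 6 over 32536 promoter windows of that length. The Hoxd9 window held 65.2% and 13 CpG pairs, and the Hoxd10 window held 65.6% and 20. CCAAT matched once in the Hoxd8 window, starting 62 bases before the annotated start, and once in the Hoxd10 window on the opposite strand, starting 26 bases before it. It had no match in the Hoxd9 window, and 33.8% of all windows held it. Neither the PBX-HOX composite motif TGATNNAT, held by 7.66% of all windows, nor the TATA box TATAAA, held by 12.3%, matched in these 3 windows on either strand. A promoter entry existed for 22 of the 38 listed genes, in 24 windows, and 4 of these 22 genes (Hoxa2, Hoxb1, Hoxb8 and Hoxd11) had the composite motif. CCAAT matched in 14 of the 22 genes and TATAAA in 4, and these counts were not tested against all windows. No matches overlapped in the 3 windows shown. A match describes the letters of a window and is not evidence of binding.

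Deposited array medians ran from 157 to 178, and the factors that scaled the arrays from 0.909 to 1.29. The floor of an array, below which a value was taken as background, was the 40th percentile of its probe sets and ran from 96.5 to 137. All 10 skeletal muscle markers, among them Ckm and Acta1, were called lower in the tumours, with summed levels of 445499 to 630864 in muscle and 646 to 115732 in tumour. As a share of the muscle mean, they stood at 12.0% in CC23, 4.76% in CC17-B, 0.928% in CC17-A, 0.113% in SSM5 and 20.2% in SSM4. Endothelial markers had 4 of 9 lower (summed levels 2475 to 4028 in tumour and 4585 to 6274 in muscle). Fibroblast markers had 3 of 7 higher and 2 lower (28231 to 111314 and 49554 to 64755), and leukocyte markers 2 of 7 higher (2680 to 13756 and 3447 to 5113). Of 4 adipocyte markers held, 3 were tested and 0 called (488 to 33849 and 28499 to 115492). Schwann cell markers had 3 of 5 lower (3601 to 10720 and 4739 to 7059) and neuron markers 1 higher of 7 held and 2 tested (1162 to 5571 and 454 to 673). Keratinocyte markers had 0 called of 3 held and 2 tested (300 to 1100 and 611 to 1016) and erythroid markers 1 lower of 3 held and 1 tested (50.7 to 145 and 291 to 4774). Below the floor on all tumours were the erythroid markers held (Hba-a1, Alas2 and Slc4a1), Lep, Krt1, Nefl, Nefm and Rbfox3. The part of these cell types in the HOX values was not tested, beyond the values given beside the results below.

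A smaller share of HOX genes than of all genes lay above the floor on every array. Of the 26 members, 13 lay at or above the floor in the hind limb muscle, 12 in hind limb 2, 11 in forelimb and 13 in intercostal muscle. The tumours showed 10 in CC23, 5 in CC17-B, 9 in CC17-A, 12 in SSM5 and 13 in SSM4. The same share over all genes held lay between 68.7% and 70.8%, depending on the array. CC17-B was the sample with the fewest detected HOX genes. The 3 genes Hoxa5, Hoxc9 and Hoxd9 reached the floor on all 5 tumours, and 8 genes did so on all 4 muscles. Over all genes held these shares were 58.7% and 59.3%.

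**Figure D1:**
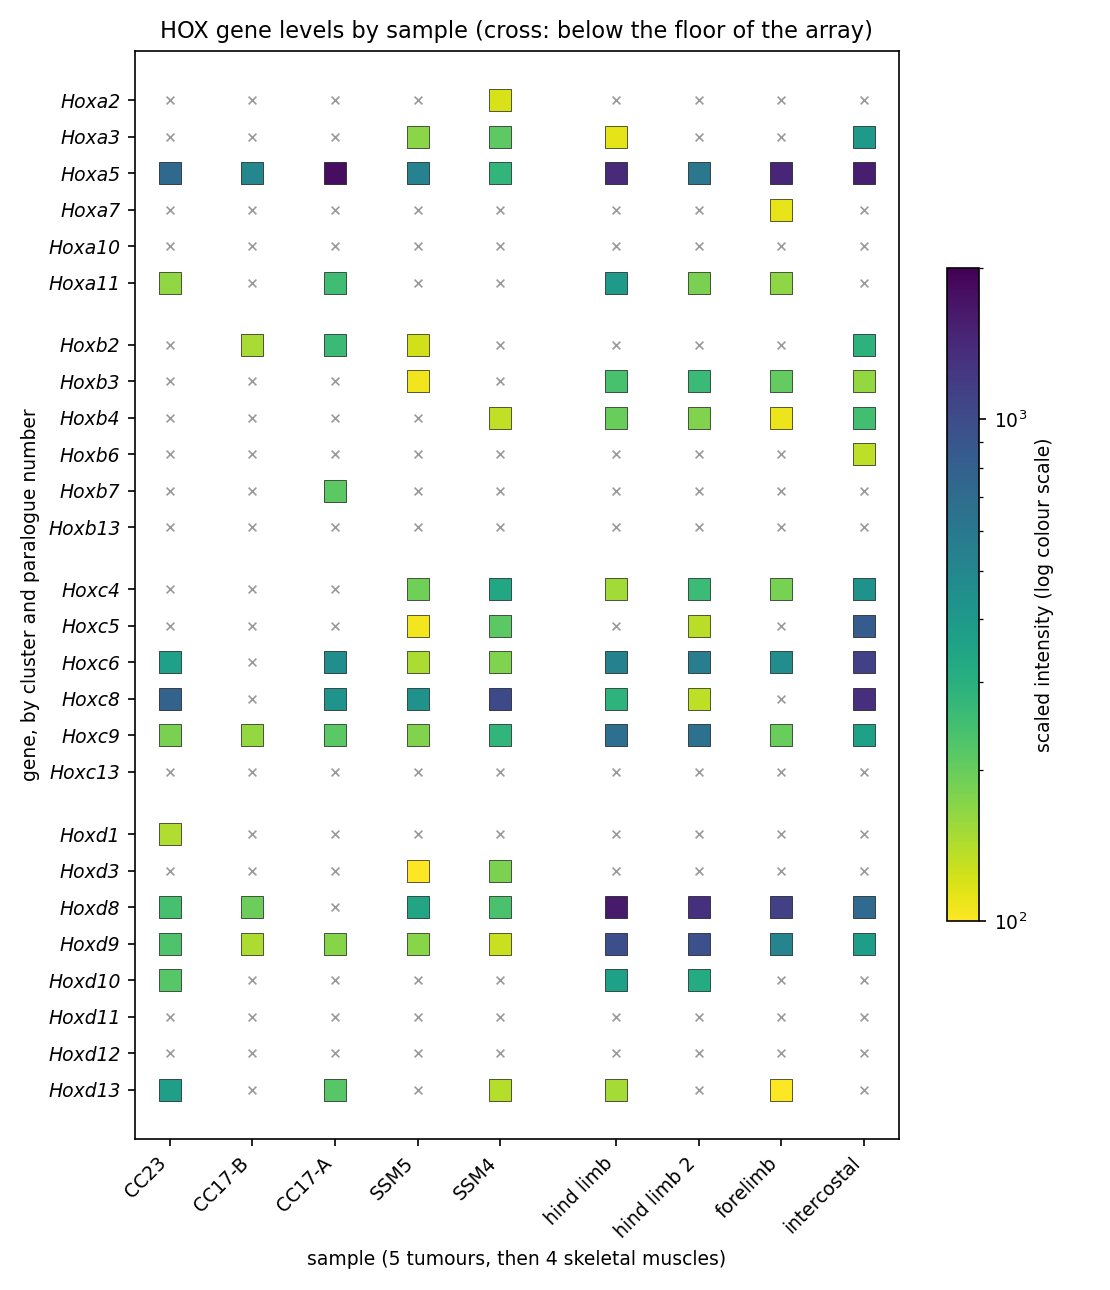
Levels of the 26 HOX genes (rows, by cluster and paralogue number) in each of the 5 tumours and 4 skeletal muscles (columns), as scaled intensity on a log colour scale, with a cross where the value lay below the floor of its array. Colours can be compared along a row, not between rows; Hoxd8 and Hoxd9 are darker in all 4 muscles than in any tumour, and Hoxc8 is at or above the floor in 4 of 5 tumours.

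The comparison of tumour with muscle asks how the tissue of this sarcoma model differs from the normal tissue that served as control. HOX genes that muscle expresses were lower in the tumours or did not pass the test, and no member was called higher. Of the 14 members that could be tested (a gene had to reach the floor on at least 4 of 9 arrays), 6 were lower, 0 were higher and 8 were not called by limma at an adjusted p under 0.05. Before adjustment 6 were lower and 0 higher at a p under 0.05. Among all 10646 genes tested, 48.1% were called, 18.0% lower and 30.1% higher. Because the filter keeps genes through the group in which they are high, the count of 6 describes these members and supports no statement about HOX genes as a class. Over all 26 members held, with no filter, the median log2 fold change was −0.41, against 0.14 over all genes held. Of the 26, 16 were below 0, as were 6339 of the 14440 genes held. The 26 include 5 members below the floor on every array, whose signs are those of background values. The called genes were Hoxb3 and Hoxb4 of cluster B, Hoxc6 and Hoxc9 of cluster C, and Hoxd8 and Hoxd9 of cluster D, and no gene of cluster A.

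Levels moved with the scaling of the arrays. Over all genes tested, the median difference of tumour minus muscle on the log2 scale was 0.23 as reported, 0.11 on the values as deposited, 0.04 with arrays centred on their median, 0.09 with quantile normalization and 0.46 when ribosomal protein and proteasome genes set the level of each array, called housekeeping centring here. Higher calls made up 62.6% of all calls as reported, 51.9% with the median and 73.5% with housekeeping centring. Relative to the median of all genes tested, Hoxd8 ran from −2.61 to −2.57, Hoxd9 from −2.15 to −2.12 and Hoxb3 from −1.74 to −1.68 over these 5 scalings. Hoxc6 ran from −1.94 to −1.90, Hoxb4 from −1.50 to −1.43 and Hoxc9 from −1.36 to −1.26.

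**Figure D2:**
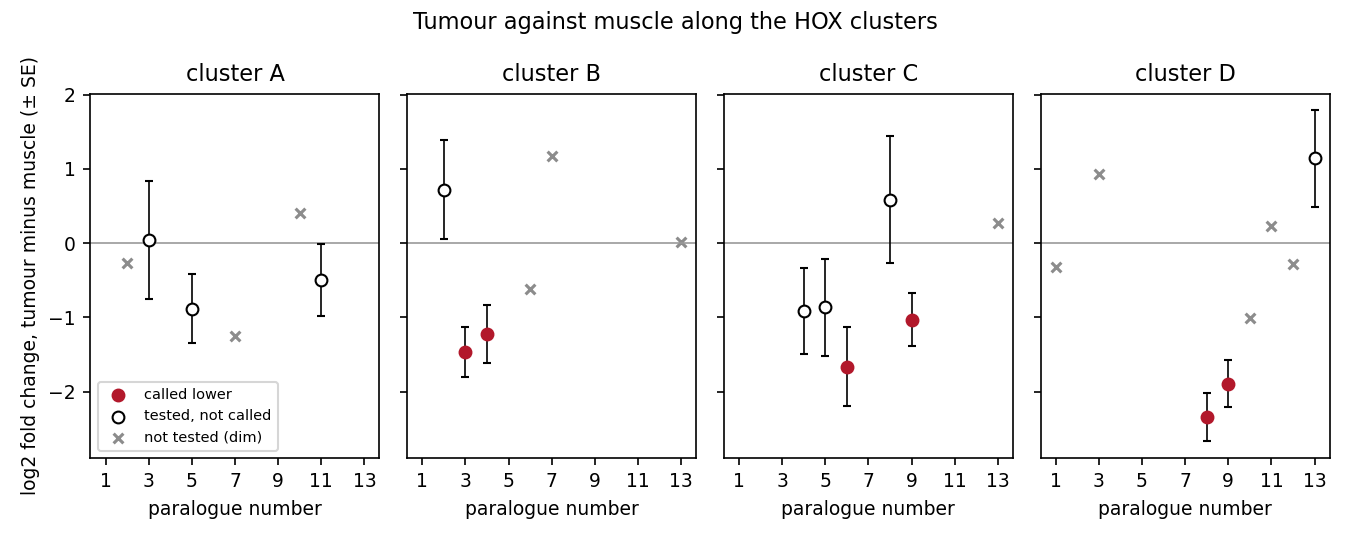
Log2 fold change of tumour minus muscle, with its SE for tested genes, against paralogue number in each cluster. Filled points are the 6 genes called lower, at numbers 3 and 4 in cluster B, 6 and 9 in cluster C and 8 and 9 in cluster D. Open points were tested and not called, and crosses reached the floor on too few arrays to be tested.

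In cluster D, Hoxd8, a gene of the trunk and limb base, showed the largest decrease among the members by the brightest probe sets. It stood at 242 in CC23, 195 in CC17-B, 110 in CC17-A, 345 in SSM5 and 235 in SSM4, against 1621 and 1313 in the hind limb muscles, 1117 in forelimb and 719 in intercostal muscle. Every tumour lay below every muscle, and the CC17-A value lay below the floor of its array. The means were 226 ± 84.8 (SD, n = 5) and 1193 ± 378 (SD, n = 4), and limma gave −2.34 for tumour minus muscle (SE 0.32, adjusted p = 1.8e-04) on the log2(value + 16) scale used throughout. Its second probe set ran from 134 to 445 in tumour and from 774 to 1269 in muscle, again without overlap. With probe sets of that second kind alone (names ending in _at with no letter before it), the log2 fold change was −1.74 (adjusted p = 0.00127). Under that choice Hoxd9, at −1.89, and Hoxa5, at −1.84, had larger decreases than Hoxd8. As a share of the muscle mean, Hoxd8 was 20.3% in CC23, 16.4% in CC17-B, 9.24% in CC17-A, 28.9% in SSM5 and 19.7% in SSM4. The muscle markers stood at 12.0%, 4.76%, 0.928%, 0.113% and 20.2% in the same order, and their part in the Hoxd8 values was not tested.

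Hoxd9, a gene of the lumbar region and upper limb, lay at 231 in CC23, 145 in CC17-B, 173 in CC17-A, 169 in SSM5 and 128 in SSM4. The muscle values were 978 and 964 in hind limb, 520 in forelimb and 383 in intercostal muscle. The groups did not overlap, and all 9 values were above the floor. Tumour and muscle means were 169 ± 39.1 (SD, n = 5) and 711 ± 305 (SD, n = 4), and limma put Hoxd9 at −1.89 on the log2 scale (SE 0.31, adjusted p = 5.4e-04). The tumours stood close together, at 18.0% to 32.5% of the muscle mean.

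Of the 14 tested members, 3 (Hoxd8, Hoxd9 and Hoxb3) had every tumour below every muscle and 0 had every tumour above. Among all genes tested these shares were 15.2% and 25.3%.

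Hoxd13, which patterns the digits and the end of the body axis, was not called. Its tumour values were 373 in CC23, 65.0 in CC17-B, 220 in CC17-A, 55.3 in SSM5 and 139 in SSM4, and its muscle values 150 and 18.3 in hind limb, 102 in forelimb and 17.8 in intercostal muscle. The groups overlapped, and the log2 fold change was 1.14 (SE 0.65, adjusted p = 0.171 by limma). The other Hoxd13 probe set lay between 4.07 and 29.7 on all arrays, below the floor, so the measured signal rests on 1 probe set.

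In cluster B the called genes were dim. Hoxb3, which acts in the hindbrain and neck, was at 39.9 in CC23, 50.3 in CC17-B, 66.4 in CC17-A, 106 in SSM5 and 91.6 in SSM4, and only the SSM5 value reached the floor. The muscles stood at 239, 263, 207 and 162 in hind limb, hind limb 2, forelimb and intercostal muscle, all above it. The groups did not overlap, with means of 70.9 ± 27.7 (SD, n = 5) and 218 ± 43.6 (SD, n = 4), and limma put Hoxb3 at −1.47 on the log2 scale (SE 0.33, adjusted p = 0.00399). With 4 of the 5 tumour values below the floor, the tumour level of Hoxb3 is bounded by the floor rather than measured in those 4.

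Hoxb4, a gene of the neck region that also acts in blood stem cells, was above the floor in SSM4 alone among the tumours, at 134. The other tumours ran from 38.1 to 76.7, and the muscles were at 199, 177, 109 and 248 in hind limb, hind limb 2, forelimb and intercostal muscle. The SSM4 tumour lay above the forelimb muscle, so the groups overlapped. The fitted log2 fold change was −1.22 (SE 0.39, adjusted p = 0.0221 by limma), with the tumour level bounded by the floor in 4 of 5 tumours. The call ended without hind limb (adjusted p = 0.0616), without intercostal muscle (adjusted p = 0.0683), without hind limb 2 (adjusted p = 0.0537) and with housekeeping centring (adjusted p = 0.0736).

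Hoxb2, a hindbrain gene, was at 148 in CC17-B, 262 in CC17-A and 125 in SSM5, and at 47.4 in CC23 and 70.4 in SSM4, below the floor. Among muscles only intercostal, at 293, reached the floor, with the other 3 between 21.1 and 70.7. The log2 fold change was 0.72 (SE 0.67, adjusted p = 0.398 by limma). Hoxb2 was thus detected in both groups, in 3 of 5 tumours and 1 of 4 muscles.

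In cluster C, Hoxc6, a gene of the neck-to-chest transition at forelimb level, was at 367 in CC23, 47.4 in CC17-B, 464 in CC17-A, 147 in SSM5 and 179 in SSM4. The muscle values were 540 and 569 in hind limb, 461 in forelimb and 1139 in intercostal muscle. CC17-A reached the forelimb level, and CC17-B lay below the floor. Tumours averaged 241 ± 170 (SD, n = 5) and muscles 678 ± 311 (SD, n = 4), and limma put Hoxc6 at −1.66 on the log2 scale (SE 0.53, adjusted p = 0.0238). Without the intercostal muscle it was −1.39 (adjusted p = 0.0726). The brighter of the other Hoxc6 probe sets ran from 134 to 527 in tumours and from 382 to 889 in muscles, and the dimmer from 32.2 to 155 and from 86.9 to 173, both with overlap.

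Hoxc9, which marks the chest region, was above the floor on every array. It ran at 183 in CC23, 162 in CC17-B, 216 in CC17-A, 176 in SSM5 and 282 in SSM4, against 682 and 652 in hind limb, 198 in forelimb and 360 in intercostal muscle. The forelimb value lay within the tumour range. Means were 204 ± 47.9 (SD, n = 5) and 473 ± 234 (SD, n = 4), and the log2 fold change was −1.03 (SE 0.35, adjusted p = 0.0326 by limma). The call depended on single arrays and ended without CC23 (adjusted p = 0.0521), CC17-B (adjusted p = 0.0654), SSM5 (adjusted p = 0.0584), hind limb (adjusted p = 0.109) or hind limb 2 (adjusted p = 0.106). It also ended with the CC17 tumours averaged (adjusted p = 0.0527) and with housekeeping centring (adjusted p = 0.0892).

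**Figure D3:**
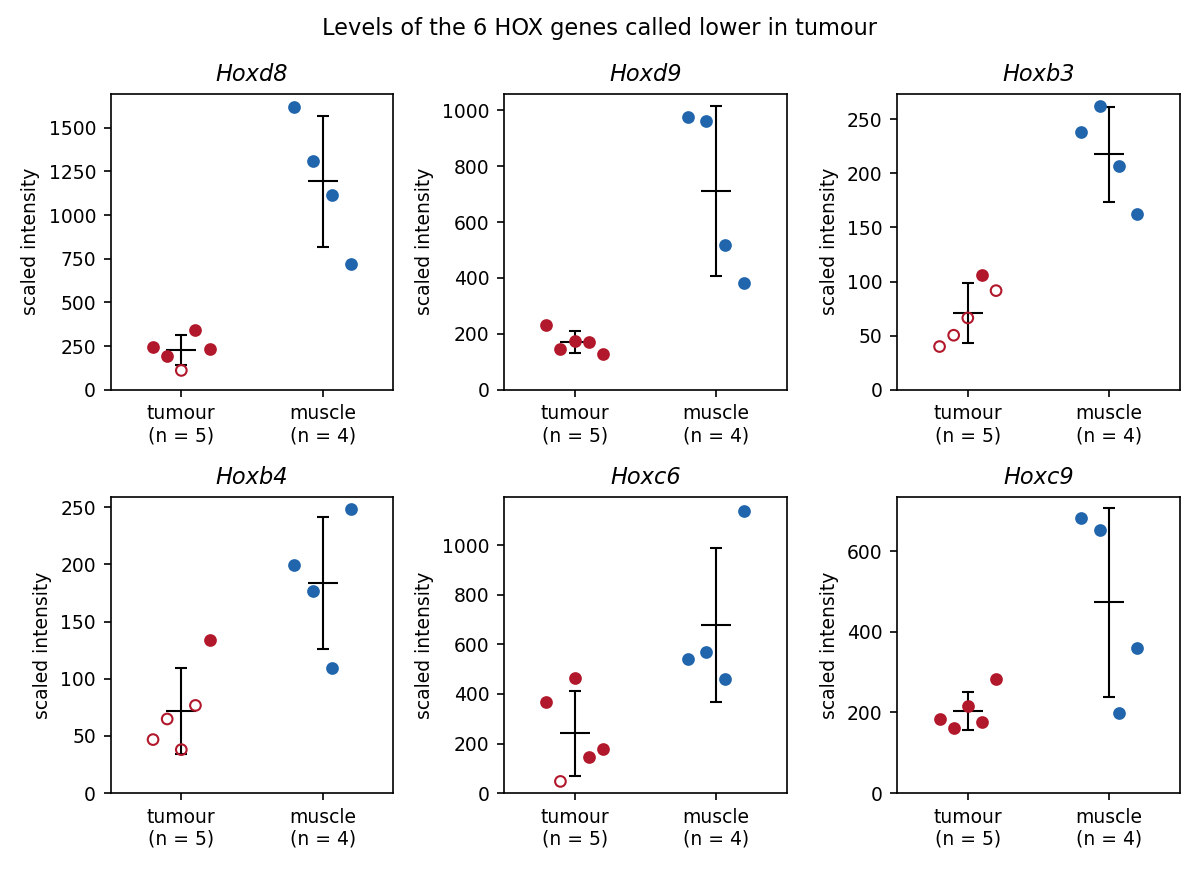
Scaled intensity of the 6 called HOX genes in each tumour (n = 5) and muscle (n = 4), with the mean and SD as bars; open circles lie below the floor of their array. The groups are apart for Hoxd8, Hoxd9 and Hoxb3 and overlap for Hoxb4, Hoxc6 and Hoxc9.

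Hoxc8, a gene of the chest and forelimb-level nerves, differed more between samples than between the groups. It was at 778 in CC23, 56.3 in CC17-B, 431 in CC17-A, 439 in SSM5 and 1032 in SSM4. In muscle it was at 1330 in intercostal, 288 and 135 in hind limb and 78.9 in forelimb, below the floor. The log2 fold change was 0.58 (SE 0.86, adjusted p = 0.599 by limma), and −0.17 (adjusted p = 0.895) without CC23 and SSM4. These tumours held the most muscle marker signal and also the highest Hoxc8. Leaving them out thus had to lower the fold change, and the part of muscle content was not tested. With values below the floor set to it, Hoxc8 spanned 10.2-fold between the highest and lowest tumour. The SD of its log2 level over tumours was 1.22, against a median of 0.42 over all genes tested, and 3.21% of those genes had a larger one. Without CC17-B the log2 fold change was 1.21 (adjusted p = 0.194), and without intercostal muscle 1.35 (adjusted p = 0.184).

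Hoxc4 and Hoxc5, genes of the neck and forelimb level, were above the floor in both SSM tumours and in no CC tumour. Hoxc4 was at 334 in SSM4 and 191 in SSM5, above the floor, and at 135, 21.0 and 96.9 in CC23, CC17-B and CC17-A below it. Hoxc5 was at 214 in SSM4 and 106 in SSM5, and at 38.4 to 75.4 in the CC tumours. The floors differed, at 137 in CC23, 102 in CC17-B, 132 in CC17-A, 96.5 in SSM5 and 97.6 in SSM4. Hoxc4 in CC23 and CC17-A thus lay below the floor of its own array but above the SSM5 floor. The second Hoxc5 probe set lay between 9.34 and 38.0 in the tumours, below the floor in all. In muscle, Hoxc4 was at 151 and 260 in hind limb, 185 in forelimb and 436 in intercostal muscle. Hoxc5 was at 850 in intercostal muscle and 136 in hind limb 2, and at 90.7 in hind limb and 73.1 in forelimb, below the floor. Both groups overlapped for each gene. The log2 fold changes were −0.91 (adjusted p = 0.217) for Hoxc4 and −0.86 (adjusted p = 0.303) for Hoxc5 by limma. Among tumours, Hoxa3 and Hoxd3, described below, also reached the floor in SSM5 and SSM4 alone, with Hoxd3 in SSM5, at 97.0, close to it. Hoxa3 in CC17-A, at 109, lay above the SSM5 floor too. The other Hoxa3 probe sets, at 65.9, 12.8 and 82.5 in SSM5, did not reach the floor there. This difference between CC and SSM tumours was not tested.

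In cluster A, Hoxa5, which acts in the neck and the lung, was above the floor on all 9 arrays by the brighter of its 2 probe sets. By that probe set the tumours were at 728 in CC23, 499 in CC17-B, 1805 in CC17-A, 534 in SSM5 and 283 in SSM4, and the muscles at 1398 and 609 in hind limb, 1454 in forelimb and 1554 in intercostal muscle. CC17-A lay above every muscle, and the log2 fold change was −0.88 (SE 0.47, adjusted p = 0.142 by limma). Without CC17-A it was −1.25 (adjusted p = 0.0183). The probe sets of Hoxa5 disagreed in size. The second one lay between 24.4 and 128 in tumours, below the floor in all 5, and at 170 to 619 in muscles. With _at probe sets alone the fitted log2 fold change was −1.84 (adjusted p = 0.00605), which is taken against background and is no measured size. The brighter level comes from a probe set ending in _x_at, a type that can share probes with other transcripts.

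Hoxa11, which patterns the forearm and lower leg, was at 164 in CC23 and 250 in CC17-A and below the floor in the other tumours, at 65.7 to 90.8. In muscle it was at 394 and 183 in hind limb, 167 in forelimb and 69.5 in intercostal muscle, the last below the floor. It did not pass the test (log2 fold change −0.49, SE 0.49, adjusted p = 0.430 by limma). Hoxa3, a gene of the pharyngeal arches, was at 397 in intercostal and 113 in hind limb muscle and at 168 in SSM5 and 209 in SSM4, and below the floor elsewhere. Its log2 fold change was 0.045 (adjusted p = 0.968 by limma), and changed sign with the scaling.

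The 12 members held and not tested each lay below the floor on most arrays. They reached the floor in 10 of 108 measurements, and 5 of them (Hoxa10, Hoxb13, Hoxc13, Hoxd11 and Hoxd12) did so on no array. For Hoxd10 the measurements were 222 in CC23 and, in hind limb, 359 and 319. For Hoxd3, a gene of the neck vertebrae, they were 97.0 in SSM5 and 180 in SSM4. The others were 120 for Hoxa2 in SSM4, 111 for Hoxa7 in forelimb, 135 for Hoxb6 in intercostal muscle, 212 for Hoxb7 in CC17-A and 143 for Hoxd1 in CC23. A value below the floor was not distinguished from background on that array, which does not show that the gene is silent.

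Lower calls are given next by position along the clusters, beside the 18.0% of all genes tested that were lower, and these small counts were not compared. Of the 6 members held in paralogue groups 1 to 3, 1 of 3 tested was lower. In groups 4 to 8 it was 3 of 7 tested among 10 held, and in groups 9 to 13 it was 2 of 4 tested among 10 held. The unfiltered median log2 fold changes were −0.11, −0.90 and −0.13 in these stretches. All 5 members that reached the floor on no array were in groups 9 to 13.

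HOX levels differed among the 4 muscle arrays. Sites were not tested against each other, since forelimb and intercostal muscle have 1 array each, and ratios are given as a description, with values below the floor set to it. The hind limb arrays differed from each other for some members, as for Hoxa5 (1398 and 609), Hoxa11 (394 and 183) and Hoxc8 (288 and 135). They lay close for others, as for Hoxd9 (978 and 964) and Hoxd10 (359 and 319). The ratios are not set against this spread within a site. The intercostal array also stood apart in other markers. Its summed adipocyte markers were at 115492, against 28499 to 35324 in the other 3 muscles, and its skeletal muscle markers at 445499, against 585036 to 630864. Site and tissue content cannot be told apart with 1 intercostal array. Of 17 members at or above the floor on at least 1 muscle, 5 were at least 2-fold higher in intercostal muscle than in the other 3, against 4.11% of 11513 such genes. These were Hoxa3 (3.50-fold over the next muscle), Hoxb2 (2.85-fold), Hoxc5 (6.24-fold), Hoxc6 (2.00-fold, at the limit of the rule) and Hoxc8 (4.62-fold). The Hoxa3 ratio comes from 1 of its 4 probe sets, and the others read 165, 82.0 and 4.28 in intercostal muscle. The Hoxc6 ratio also rests on 1 probe set, of the _x_at type. The others read 889 and 139 in intercostal muscle, against 664 and 109 in hind limb 2 and 516 and 173 in hind limb. The second Hoxc5 probe set read 224 in intercostal muscle and 11.7 to 47.2 in the other muscles. The part of the adipocyte signal in these ratios was not tested. Forelimb was at least 2-fold higher for 0 of 17 members and 0.599% of genes.

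Hoxd10, which acts in the outer limb and in hind limb motor neurons, was at 359 and 319 in the hind limb muscles and at 60.3 in intercostal and 47.8 in forelimb muscle, both below the floor. It was the 1 of 17 members that was at least 2-fold higher in both hind limb arrays than in the other sites, by 2.82-fold, against 0.130% of genes. Hoxd9 and Hoxc9 showed the same order more weakly, with both hind limb arrays 1.85-fold and 1.81-fold above the higher of the other sites. Among tumours only CC23 had Hoxd10 above the floor, at 222. CC23 also had the highest Hoxd1, Hoxd9 and Hoxd13 of the tumours.

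**Figure D4:**
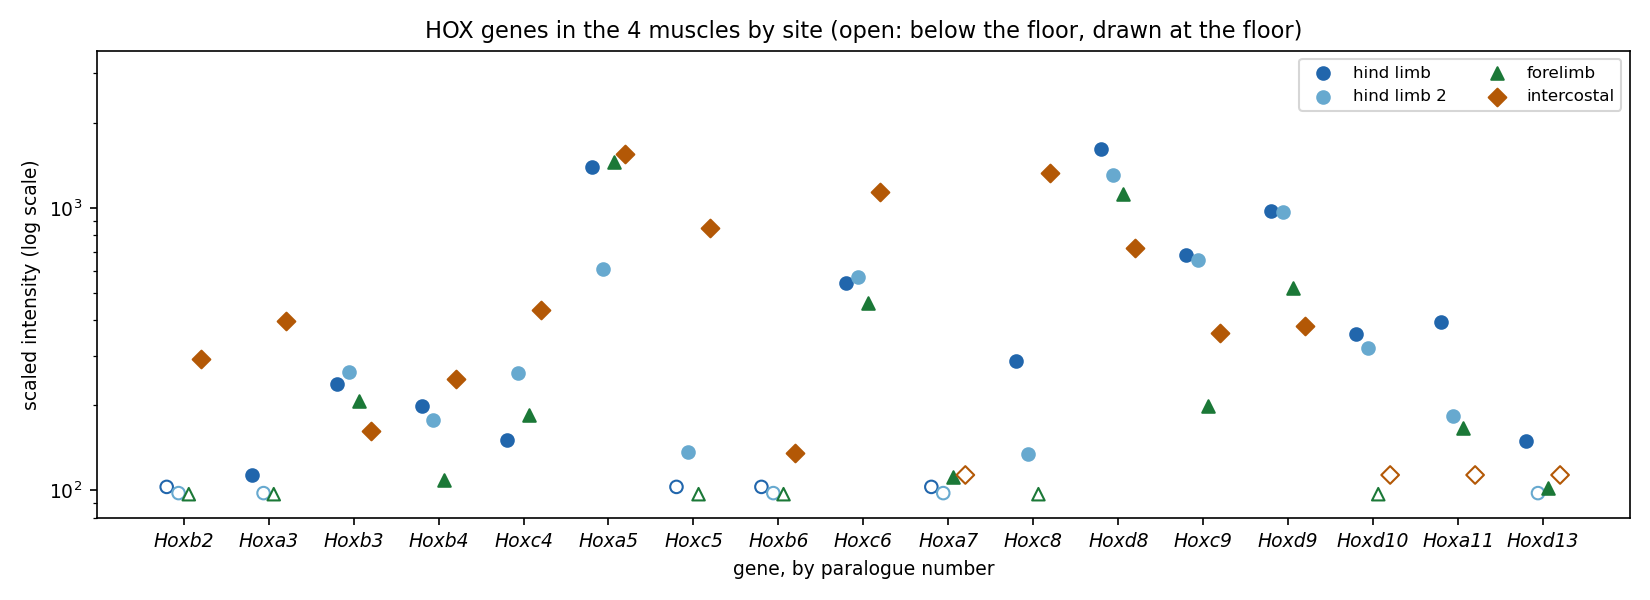
Scaled intensity (log scale) of the 17 HOX genes at or above the floor on at least 1 muscle, ordered by paralogue number, with open symbols for values below the floor, drawn at the floor. Intercostal muscle (diamonds) is the highest for 9 genes, with numbers from 2 to 8, and both hind limb muscles (circles) are the highest for 6, which are Hoxb3, Hoxd8, Hoxc9, Hoxd9, Hoxd10 and Hoxa11.

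The sites were checked with limb identity genes. Tbx4 and Pitx1 mark hind limb and Tbx5 forelimb in the embryo. Tbx4 was at 91.0 and 123 in hind limb, 164 in forelimb and 71.5 in intercostal muscle, and Tbx5 at 14.1 and 108 in hind limb, 42.6 in forelimb and 17.6 in intercostal muscle. Pitx1 was below the floor in all 4 muscles. These markers therefore did not separate forelimb from hind limb in adult muscle on these arrays.

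The tumours differed from one another in their HOX pattern as well as from muscle. CC17-B had 5 members above the floor (Hoxa5, Hoxb2, Hoxc9, Hoxd8 and Hoxd9), whereas CC17-A, with the same label stem, had 9. By the probe sets used, CC17-B was below its floor for Hoxc6 (47.4, against 464 in CC17-A) and Hoxc8 (56.3, against 431). CC17-A was at least 4.57-fold and at least 4.25-fold higher by these, taken against that floor. The Hoxc6 bound holds for that probe set only. By the brighter of the other Hoxc6 probe sets CC17-B was above its floor, at 134, against 527 in CC17-A. Of the 4 genes above the floor in both, Hoxa5 was 3.62-fold apart, Hoxb2 1.77-fold, Hoxc9 1.33-fold and Hoxd9 1.19-fold. Muscle markers were at 4.76% in CC17-B and 0.928% in CC17-A, and adipocyte markers at 48.9% and 0.930% of the muscle mean, and the part of these in the difference was not tested. The tested member with the smallest spread over tumours was Hoxb3, at an SD of 0.20 on the log2 scale with values below the floor set to it, and 4 of its 5 values were at the floor. Hoxd9 and Hoxc9, measured on every tumour, had SDs of 0.29 each.

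Of 9 TALE genes listed, 7 were held and 6 tested, of which 5 were higher and 1 lower by limma, against 30.1% and 18.0% of all genes tested. Pbx4, held and not tested, lay below the floor in all 5 tumours. In muscle it reached the floor only in hind limb, at 126, and hind limb 2, at 131. Meis2 was at 1087 ± 283 (SD, n = 5) in tumour and 191 ± 186 (SD, n = 4) in muscle, a rise of 2.72 on the log2 scale (adjusted p = 4.5e-04 by limma). Meis1 was at 950 ± 745 (SD, n = 5) and 127 ± 77.6 (SD, n = 4), a rise of 2.64 (adjusted p = 7.6e-04 by limma), with CC17-B highest at 2262. All tumours lay above all muscles for both. For each gene only 2 of the 4 muscle values reached the floor, so these sizes are taken partly against background. Intercostal was the highest muscle, at 240 for Meis1 and 469 for Meis2. The sizes depended on the probe sets: with _at probe sets alone Meis2 was at 1.81 and Meis1 at 1.37, and with probe sets averaged Meis1 was at 1.41. Pbx3 rose by 1.67 on the log2 scale (adjusted p = 0.0131), with CC23, at 212, within the muscle range and the other tumours at 667 to 1417. Pknox2 was the gene that fell, from 986 ± 237 (SD, n = 4) to 250 ± 35.2 (SD, n = 5), or −1.89 on the log2 scale (adjusted p = 7.0e-05 by limma). Pbx2 rose by 0.96 (adjusted p = 0.00236) and Pknox1 by 1.30 (adjusted p = 0.0448). SSM5 and SSM4 had Pknox1 within the muscle range, and its call ended under 14 of 26 alternatives. It ended without CC23, CC17-B, CC17-A or any single muscle, with adjusted p = 0.0618 to 0.124. Pbx2, Pbx4 and Pknox1, like Rnf2, Lbx1 and Tbx15 below, fall outside the rule for named genes and were named after their values were seen.

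**Figure D5:**
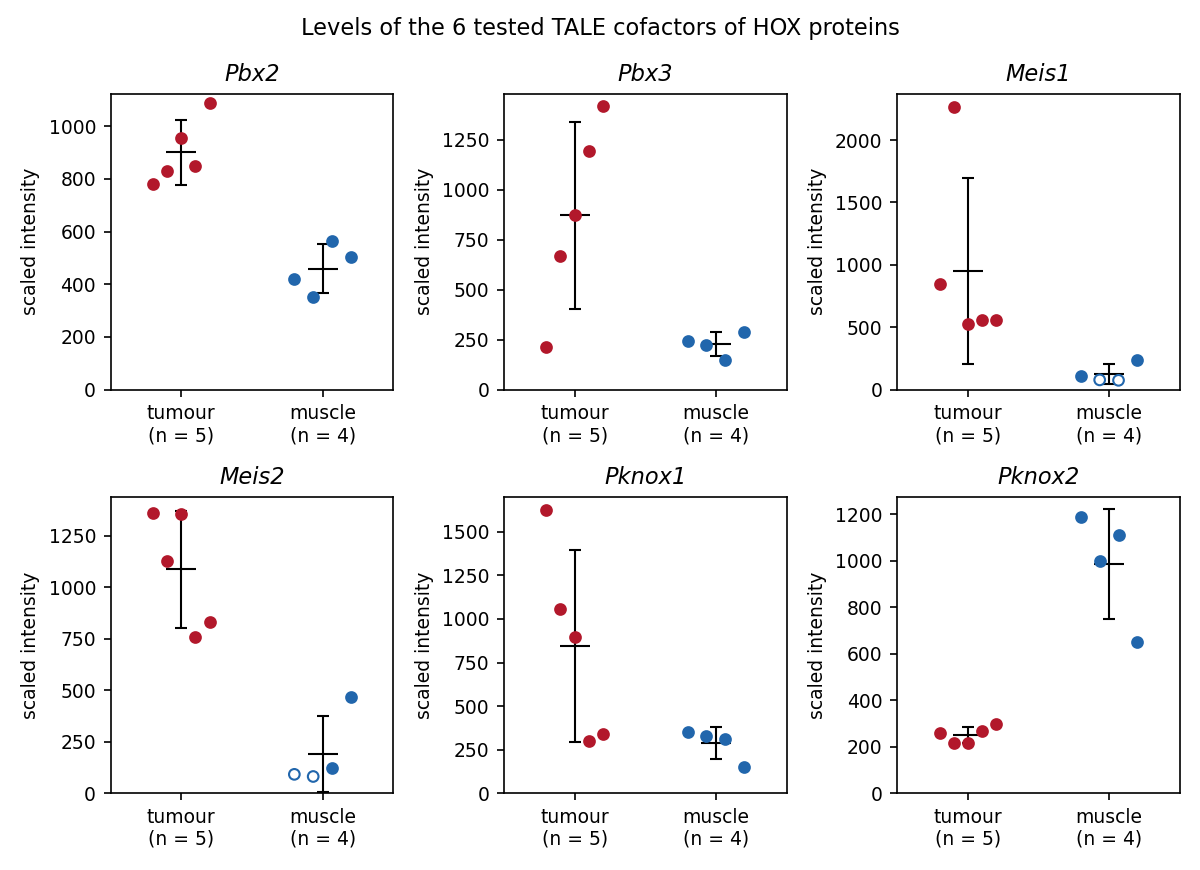
Scaled intensity of the 6 tested TALE cofactors in each tumour (n = 5) and muscle (n = 4), with the mean and SD as bars and open circles for values below the floor. Meis1, Meis2 and Pbx2 are higher in all 5 tumours than in any muscle, and Pknox2 is lower in all 5.

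Of 16 tested of 20 listed regulators of chromatin at the HOX clusters, 4 were higher, 1 was lower and 11 were not called, against 30.1% higher and 18.0% lower over all genes tested. Ezh2, the Polycomb methyltransferase that marks silent HOX genes, averaged 2029 ± 993 in tumours (SD, n = 5) and 403 ± 119 in muscles (SD, n = 4), a rise of 2.22 on the log2 scale (adjusted p = 2.7e-04 by limma). Cbx2, which reads that mark, rose by 1.70 (adjusted p = 4.9e-04), Men1, a partner of the activating MLL complex, by 1.65 (adjusted p = 3.2e-04) and Rnf2, a Polycomb ubiquitin ligase, by 1.16 (adjusted p = 0.00159). The calls of Cbx2 and Men1 ended when all probe sets of a gene were averaged (adjusted p = 0.226 and adjusted p = 0.185). Bmi1, a Polycomb partner of Rnf2, fell by 1.27 on the log2 scale (adjusted p = 0.00868), and in CC17-B, at 2745, it was within the muscle range. Over the alternatives the list had 3 to 9 higher calls, with 9 under housekeeping centring, 7 with array quality weights, 6 without CC17-B and 3 with probe sets averaged. It had 1 lower call under each.

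Of 9 tested of 15 listed genes next to the HOX clusters, 2 were higher, 1 was lower and 6 were not called, against the same 30.1% and 18.0%, with 1 to 4 higher over the alternatives. Hibadh, a metabolic enzyme gene beside cluster A, fell by 0.86 on the log2 scale (adjusted p = 0.00293 by limma). Cbx5, a heterochromatin protein gene beside cluster C, rose by 1.64 (adjusted p = 2.7e-04), or by 0.54 with probe sets averaged (adjusted p = 0.0451), and Smug1, a DNA repair gene near it, by 0.62 (adjusted p = 0.0474). The Smug1 call ended without any single array but CC17-B, with adjusted p = 0.0631 to 0.119. The ParaHox and EVX list, relatives of the HOX genes, had 0 of 2 tested genes called by limma, with 1 at an unadjusted p under 0.05. Over the alternatives this list had 0 to 1 higher and 0 lower calls.

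In the list of limb position and outgrowth factors, of 10 tested of 14 listed, 8 were higher and 2 lower by limma, against 30.1% and 18.0% of all genes tested, with 4 to 8 higher over the alternatives. The count was 5 without CC23, CC17-A or SSM4, and 4 without CC23 and SSM4 together or with probe sets averaged. Tbx2 was at 805 ± 88.1 (SD, n = 5) in tumour and below the floor in all muscles, at least 6.89-fold higher (adjusted p = 7.5e-05). Pitx1, a hind limb factor, was at least 2.84-fold higher on the same measure (adjusted p = 0.00193), at 91.3 in CC17-B, below the floor, and 233 to 583 in the other tumours. Shox2 rose by 2.85 and Pax3, a muscle precursor factor, by 2.15 on the log2 scale. Lbx1 and Tbx15, which act in migrating muscle precursors and in muscle fibre type, fell by 1.75 and fell by 1.61 on the log2 scale, respectively.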

How the data were processed

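The authors deposited 1 linear intensity per probe set and array, made with MAS5 per the submitters' processing notes, with version, scaling and detection calls not given in the sources used here. Of 30508 probe sets, 25581 with a single gene symbol were used, leaving out 7 controls, 496 with several symbols and 4424 with none. Gene symbols are those of GEO's platform annotation, which can be old. Arrays were scaled to a common 2% trimmed mean because these differed by over 10%. Where a gene had several probe sets, the brightest on average over all arrays stood for it. A gene was tested if at or above the floor (40th percentile of an array) on at least 4 arrays. Levels were log2(value + 16), tested two-sided with limma 3.58.1 (R 4.3.3) by lmFit and trended eBayes, and p-values were adjusted over 10646 genes by Benjamini-Hochberg. The offset of 16 understates changes of dim genes. Precision is limited by having 9 arrays. The procedure was tested on simulated data. The fold written as "at least" sets the mean of the bright group against the floor.

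The members and lists were chosen with earlier results of these data known. Named were every HOX gene held and, of each further list, up to 4 called genes with the largest change, plus Tbx4, Tbx5 and Pitx1. The alternatives tried were other scalings, pseudocounts, filters, probe set choices, settings of the fit, averaging the CC17 tumours and leaving out each array. Leaving out CC23 and SSM4 together was chosen after seeing the data.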

Additional observations from a re-analysis of the deposited data

Results flagged for a closer look

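Of 36 sets of tumour or muscle values tested for a sample far from the others (with values below the floor set to it), 4 were picked out, all in muscle, by the gap to the nearest sample divided by the range. The limit of this rule is meant to pick about 1 in 20 by chance where no value is set to a floor. Setting values to the floor changes that rate, so the 4 picks cannot be compared with it. Intercostal muscle stood high for Hoxa3 (397, next 113, gap share 0.895), for Hoxb2 (293 against a floor of 103, gap share 0.949) and for Hoxc5 (850, next 136, gap share 0.854). That array also had the highest summed adipocyte markers of the 4 muscles (115492), whose part in these values was not tested. The second hind limb muscle stood low for Hoxa5 (609, next 1398, gap share 0.887).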

How the results depend on the processing

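Over 26 alternatives, 1 of them chosen after seeing the data, no HOX gene was called higher, and the count of lower calls ran from 4 to 7, also when single arrays were left out. The calls of Hoxd8 and Hoxd9 held under all 26, and that of Hoxb3 under the 25 in which it was tested, with adjusted p up to 0.00127, 0.00285 and 0.0182. Those of Hoxb4, Hoxc6 and Hoxc9 ended under 4, 1 and 7 alternatives, and Hoxa5 was called under 3. The median log2 fold change of the 26 genes ran from −0.56 to −0.24 without single arrays. Genes at or above the floor on all tumours numbered 3 as reported, 5 with the floor at the 30th percentile, 1 with the 50th percentile, 6 with the CC17 tumours averaged, and 3 to 5 without single arrays (5 without CC17-B). Those on all muscles numbered 8, 5 with the 50th percentile, and 8 to 9 without single arrays. Hoxa3, at 0.045, changed sign to −0.038 on the values as deposited, −0.094 with arrays centred on their median, −0.15 with quantile normalization, −0.027 with a pseudocount of 64, and without CC17-A, forelimb or hind limb 2, within a range of −0.38 to 0.39 without single arrays. Hoxc8 changed sign to −0.17 without CC23 and SSM4, the tumours in which it was highest. The cause was not tested. The CC17 tumours as a random block could not be fitted, since a single pair gives no usable estimate of the correlation. No paired analysis was possible because the replicate numbers come from sample order and pair no samples.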
